A study of Homo sapiens with 6 samples.

Results

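The TGF-beta, BMP and activin pathway was followed in C4-2B and RC4-2B prostate cancer cells through 45 genes, which are the rows of the deposited count table whose gene name equals 1 of 45 listed symbols, out of 58735 rows in all. The list holds ligands, receptors, SMAD proteins, intracellular inhibitors, target genes and extracellular binding proteins, and every symbol was found once. C4-2B is an established castration-resistant line derived from LNCaP cells and is the parental line here. RC4-2B is a subclone of C4-2B that survived repeated treatment with rising concentrations of CBZ (cabazitaxel, a taxane that stabilises microtubules). The concentration rose from 0.1 to 20 nM, in treatments of 72 h, over 4 months. Medium with 10% fetal bovine serum is named in the labels for both lines. RNA of 3 biological replicates of each line was sequenced, without a drug being named for the culture that gave the RNA. RC4-2B is 1 resistant subclone of 1 line, so that a difference that came with resistance and a difference that came with the choice of the clone cannot be told apart.

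Ligands of the TGF-beta superfamily are secreted dimers that bring type I and type II serine/threonine kinase receptors together at the cell surface. The activated type I receptor phosphorylates receptor-activated SMADs, SMAD2 and SMAD3 mainly for TGF-beta and activin and SMAD1, SMAD5 and SMAD9 mainly for BMPs, and these enter the nucleus with the common partner SMAD4. SMAD6, SMAD7, the SMURF ubiquitin ligases and the SKI proteins restrain the signal inside the cell, whereas noggin, chordin, follistatin and gremlin bind ligands outside it. In prostate epithelium TGF-beta is known as a growth inhibitor, and BMPs are known for inducing bone, the tissue to which prostate cancer most often spreads.

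Of the 45 genes, 35 were expressed well enough for the test across all 15054 tested genes (quasi-likelihood test of edgeR, Benjamini-Hochberg adjusted p under 0.05). BMPR1B, a type I receptor for BMPs, was 3.49-fold lower in RC4-2B. BMP6, a BMP ligand, was 2.24-fold lower. No member passed the test in the other direction, and the remaining 33 tested members did not pass it. SMAD5 and SKI were among the members with the highest levels in both lines, and ID1, a target gene of BMP signalling, had the highest level of all per length.

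Promoter sequences are shown for BMPR1B and BMP6, the members that passed the test, and for SMAD6, the single member whose promoter holds the palindromic SMAD element GTCTAGAC. They were taken from RefSeq (GRCh38.p14), which lists windows of 300 bases, 250 before to 50 after each start, for 40 of the 45 members. BMP1, SKI, BMP2, NOG and BMP7 had no entry there. RefSeq gives 3 starts for BMPR1B, and the count table does not say which of them is used. The first window lies at chr4:94757705-94758004, the second at chr4:94995590-94995889, the BMP6 window at chr6:7725849-7726148 and the SMAD6 window at chr15:66701986-66702285, all on the plus strand. The BMP6 window ends before the position 7726797 at which the count table starts this gene, so it does not cover that start. Capitals mark the motifs that were searched on both strands, namely GTCTAGAC, the SMAD box CAGAC, which reads GTCTG on the opposite strand, and the GC-rich SMAD motif GGCGCC.
BMPR1B first start: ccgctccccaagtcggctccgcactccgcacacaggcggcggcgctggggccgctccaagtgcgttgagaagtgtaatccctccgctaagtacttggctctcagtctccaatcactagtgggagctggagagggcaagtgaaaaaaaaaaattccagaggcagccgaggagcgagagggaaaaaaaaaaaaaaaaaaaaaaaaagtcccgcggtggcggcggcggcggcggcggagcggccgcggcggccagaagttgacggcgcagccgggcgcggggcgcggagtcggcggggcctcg
BMPR1B second start: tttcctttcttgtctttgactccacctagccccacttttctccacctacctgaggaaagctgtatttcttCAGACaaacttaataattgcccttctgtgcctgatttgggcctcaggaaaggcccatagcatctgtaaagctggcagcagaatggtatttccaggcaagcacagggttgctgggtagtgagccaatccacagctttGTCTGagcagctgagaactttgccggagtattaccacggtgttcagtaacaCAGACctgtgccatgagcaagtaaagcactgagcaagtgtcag
BMP6: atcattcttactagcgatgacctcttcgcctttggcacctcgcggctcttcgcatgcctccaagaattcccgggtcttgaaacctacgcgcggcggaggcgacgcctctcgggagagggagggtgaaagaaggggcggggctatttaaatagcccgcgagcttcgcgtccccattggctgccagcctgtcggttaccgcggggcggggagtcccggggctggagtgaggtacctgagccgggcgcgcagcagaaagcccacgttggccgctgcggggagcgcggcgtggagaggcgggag
SMAD6: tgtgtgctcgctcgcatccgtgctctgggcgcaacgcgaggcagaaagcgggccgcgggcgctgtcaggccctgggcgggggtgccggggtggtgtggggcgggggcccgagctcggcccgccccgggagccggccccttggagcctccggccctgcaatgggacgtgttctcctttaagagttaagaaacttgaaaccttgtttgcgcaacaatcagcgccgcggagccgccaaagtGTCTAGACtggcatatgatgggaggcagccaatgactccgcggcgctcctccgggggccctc

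The first BMPR1B window and the BMP6 window held none of these motifs, nor did the third BMPR1B window, which lies at chr4:95051427-95051726 and is not printed, while the second BMPR1B window held 3 SMAD boxes and the SMAD6 window held 1 palindromic element. Over the 72 windows of the members, the palindromic element was found in 1 (1.39%), against 0.202% of all 35116 RefSeq promoter windows. The SMAD box was found in 37 (51.4%), against 45.3% of all windows. The GC-rich motif was found in 18 (25.0%), against 19.2% of all windows. The 3 motifs share no letters that would let 1 match hold another. A match is a run of letters in the window and was not tested for binding.

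The libraries held 15707134 to 18052517 counts, so that 3 counts, the level up to which a gene is treated here as not measured in a library, correspond to 0.170 to 0.188 CPM (counts relative to library size, scaled between libraries by TMM). RC4-2B replicate 2 stood apart from the other libraries. The SD of the log2 difference between libraries, over genes with a mean log2 CPM of at least 5, was 0.564 and 0.488 for this library against RC4-2B replicates 1 and 3, but 0.197 between those and 0.107 to 0.174 among the C4-2B libraries. Values without it are therefore given below for part of the genes, and not for the others. Where no fit is named, a value comes from all libraries, with this one included. The 9 markers of luminal prostate epithelium were well expressed in both lines, with a mean level of 20.0 to 171 FPKM (counts divided by gene length and by 1 total for each library). Their summed level was 3612 to 3663 CPM in C4-2B and 3639 to 4351 CPM in RC4-2B. TMPRSS2, an androgen-regulated protease, was the single one of them to pass the test, with a log2 fold change of -1.08 (adjusted p = 0.0190). Of the 7 fibroblast and smooth muscle markers, PDGFRB held 37 to 52 counts in each library and MYH11 7 to 14. ACTA2 held 25, 58 and 46 counts in the C4-2B replicates against 11, 18 and 13 in the RC4-2B replicates. Its log2 fold change was -1.57 (adjusted p = 0.0731 from edgeR), without overlap. The summed level of the 7 markers was 5.19 to 5.89 CPM for C4-2B libraries, against 4.05 to 4.56 CPM for RC4-2B libraries. The other 4 were at or under 3 counts throughout, and DCN, LUM and FAP among them had no count in any library. Endothelial and blood cell markers were likewise at or under 3 counts in 3 of 4 and 3 of 4 genes. Their summed levels were 7.47 to 8.14 CPM and 3.70 to 5.07 CPM for endothelium, nearly all of it from VWF, and at most 0.396 CPM and 0.176 CPM for blood cells, in C4-2B and RC4-2B respectively. The part of these marker levels in the results below was not tested.

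Levels per length spanned several orders of magnitude among the members. As a mean over the 6 libraries, ID1 was at 45.5 FPKM, the transcriptional co-repressor SKI at 26.0 FPKM, ID3 at 25.7 FPKM, the latent TGF-beta binding protein LTBP3 at 12.5 FPKM and SMAD5 at 11.9 FPKM. BMP7 was the most abundant ligand among the members, at 8.92 FPKM, followed by the activin and inhibin subunit gene INHBB at 6.22 FPKM. All 5 type I receptors among the members were expressed, whereas TGFBR2, the type II receptor that binds TGF-beta itself, was at 0.0415 FPKM. The TGF-beta ligand with the highest level, TGFB3, was at 0.170 FPKM.

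**Figure D1:**
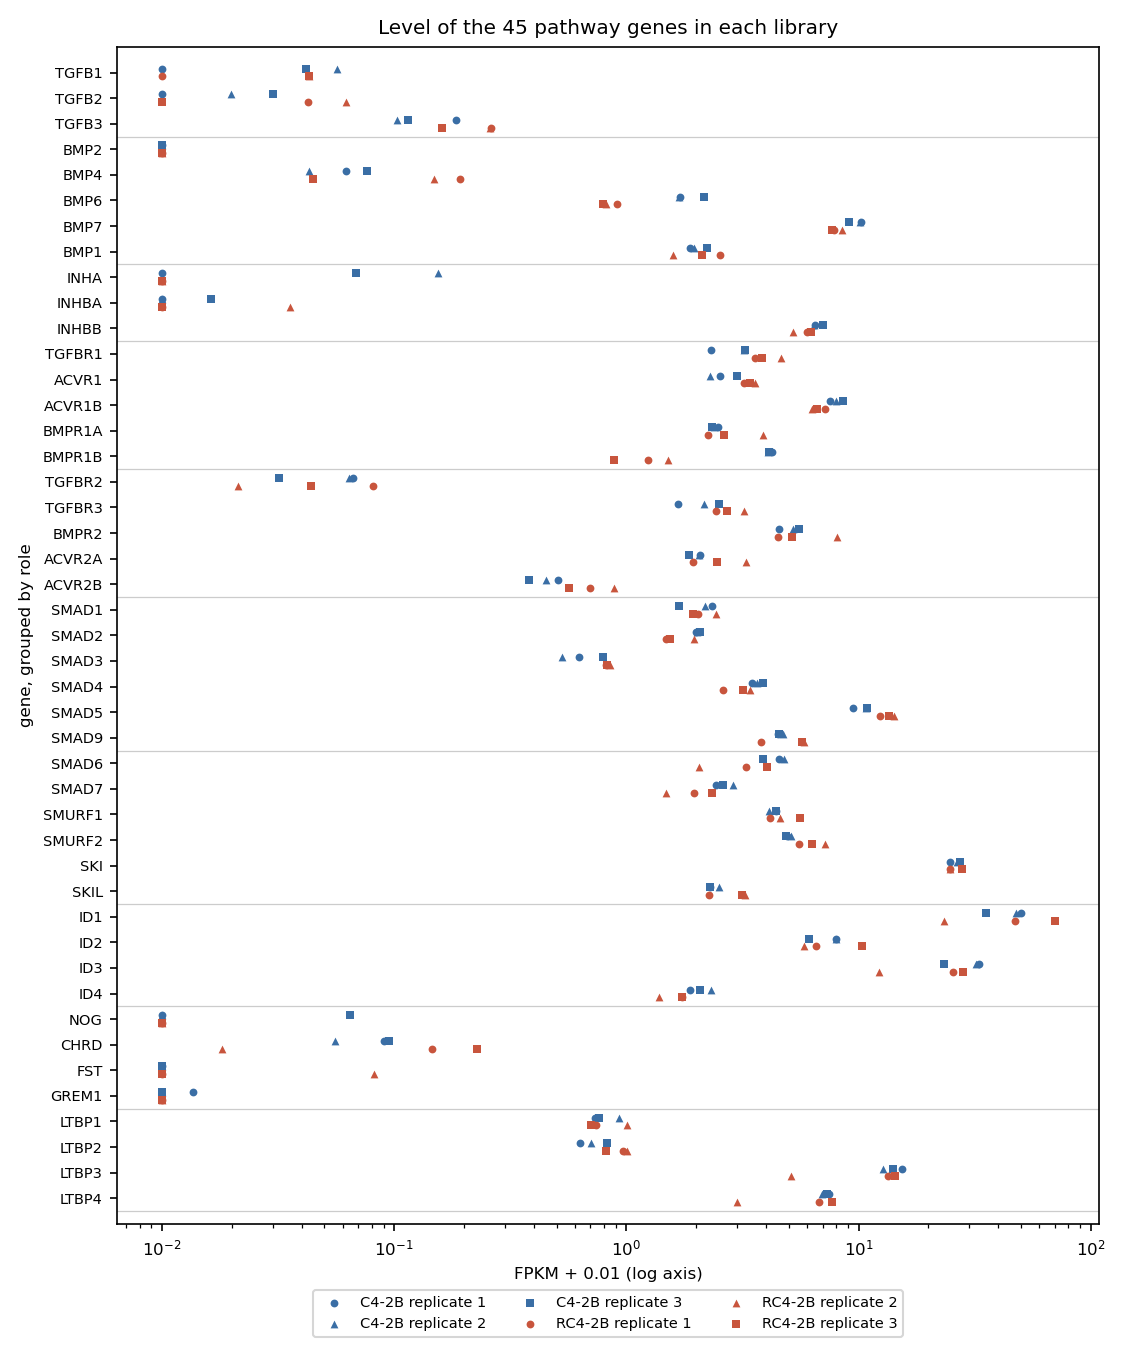
Level of each of the 45 genes in each of the 6 libraries, in FPKM with 0.01 added so that zeros can be drawn, on a log axis, with genes grouped by role and colours for the 2 cell lines. ID1 and SKI sit at the right, TGFB1, TGFB2, INHBA and the secreted antagonists at the left, and the BMPR1B and BMP6 points of the cell lines are apart.

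Of the members, 10 were too low to be tested. BMP2, an osteogenic ligand, had no count in any of the 6 libraries, which allows a level of up to 0.188 CPM in the shallowest. TGFB1 had 0, 3 and 2 counts in the C4-2B replicates 1, 2 and 3 and 0, 2 and 2 in the RC4-2B replicates. The inhibitors NOG and GREM1 had at most 2 counts and 1 count in any library. These 4 genes were at or under 3 counts in every library, and no fold change is given for them. The receptor gene TGFBR2 had 5, 5 and 2 counts in C4-2B against 6, 1 and 3 in RC4-2B, so that a difference was not detectable at this depth. BMP4 had 3, 2 and 4 counts against 10, 8 and 2, TGFB2 had 0, 1 and 2 against 3, 5 and 0, and the inhibin subunit gene INHA had 0, 5 and 2 against 0, 0 and 0. INHBA reached 4 counts and FST, which encodes follistatin, also 4, both in RC4-2B replicate 2 alone. The limits at 3 counts cover counting error only.

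The members were chosen with earlier results of these data known, so that their shares beside those of all genes are a description only. Among the tested members, 0 passed the test in the direction higher in RC4-2B, where 1.08% of all tested genes did. As lower, 2 of 35 (5.71%) passed, where 0.903% of all tested genes did. At an unadjusted p under 0.05, 5 of the 35 were higher, where 12.0% of all tested genes were, and 7 were lower, where 9.42% were. DESeq2 gave a fold change for 44 of the members and called 0 as higher, beside 1.72% of its 29108 genes, and 2 as lower, beside 1.38%. The filter on low counts was not used there, and genes without an adjusted p were counted as not called. The DESeq2 shares are therefore not comparable with those of edgeR. The median log2 fold change of the tested members was 0.02, beside 0.01 for all tested genes, with 20 members above 0 and 15 below. In 6 members (17.1%) every RC4-2B library lay above every C4-2B library, beside 17.0% of all tested genes. The reverse order held in 9 members (25.7%), beside 17.1% of all tested genes, and the groups overlapped in 20. Without RC4-2B replicate 2, 1 member passed as higher, where 6.50% of all tested genes did, and 5 passed as lower, where 6.02% did. With an offset for GC content in the fit, 0 passed as higher, beside 4.39% of all tested genes, and 4 as lower, beside 3.27%.

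**Figure D2:**
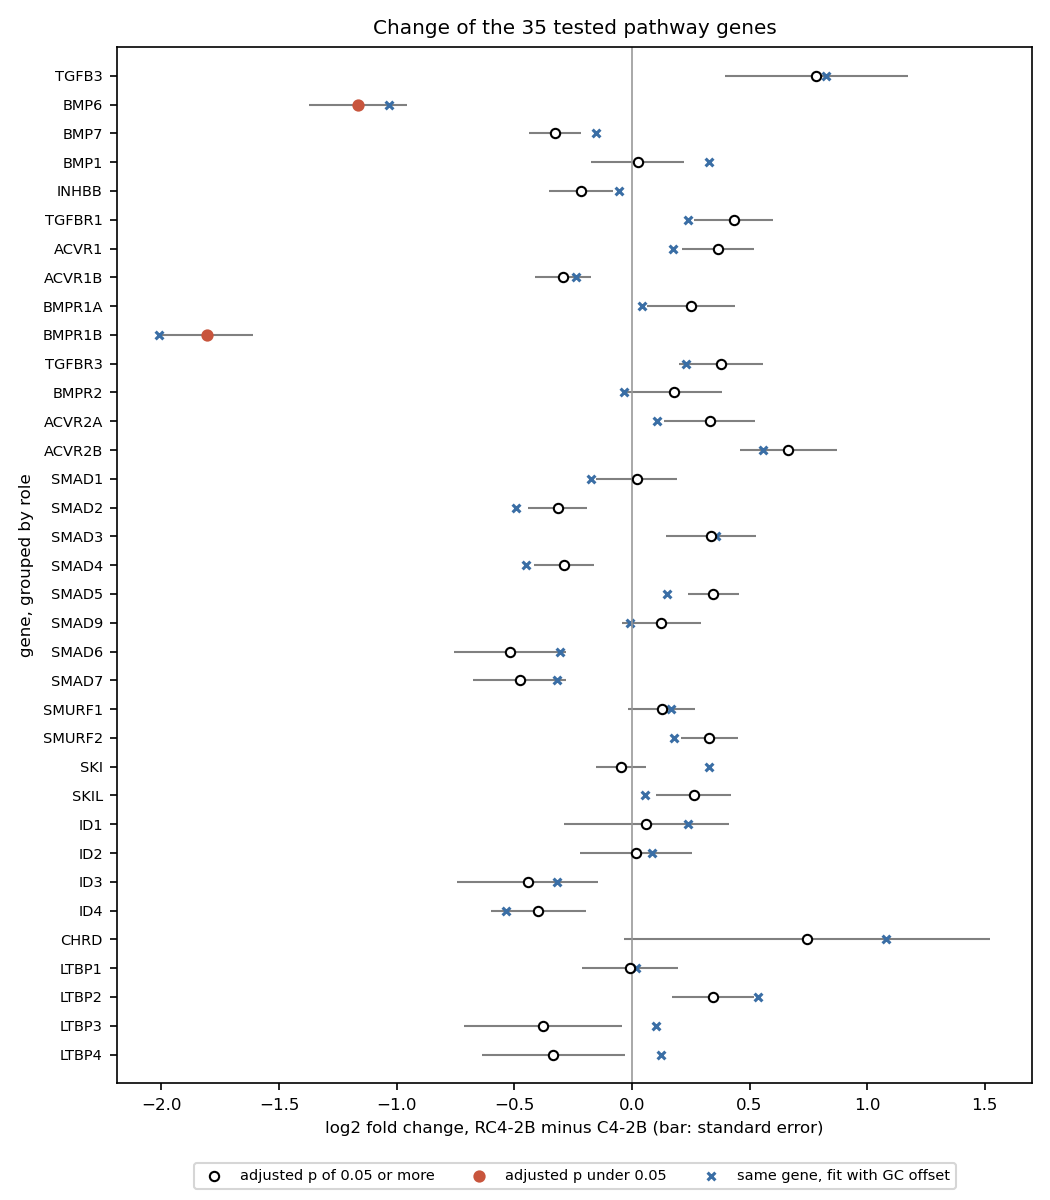
Log2 fold change between RC4-2B and C4-2B for the 35 tested members, with bars for the standard error, filled points for an adjusted p under 0.05 and crosses for the fit with a GC offset. BMPR1B at -1.80 and BMP6 at -1.16 lie farthest to the left and are the 2 filled points.

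The ligand genes that were measurable in both lines were BMP6, BMP7, INHBB and, near the limit, TGFB3. BMP6 (ENSG00000153162, chr6:7726797-7881422, plus strand, GRCh38) encodes a BMP known for its role in iron metabolism as well as in bone. The C4-2B replicates 1, 2 and 3 held 88, 92 and 116 counts, or 5.25, 5.21 and 6.60 CPM, and the RC4-2B replicates 45, 42 and 41 counts, or 2.81, 2.39 and 2.41 CPM. All RC4-2B libraries lay below all C4-2B libraries. The mean fell from 5.69 ± 0.793 CPM to 2.54 ± 0.238 CPM (SD, n = 3 each, adjusted p = 0.0307 from edgeR), which is -1.16 on the log2 scale with a standard error (SE) of 0.21. In bulk RNA, fewer cells that express a gene and less RNA per cell cannot be told apart. The call was not made in every fit with a library left out. The adjusted p was 0.149, 0.135 and 0.163 without C4-2B replicates 1, 2 and 3 and 0.113 without RC4-2B replicate 3, while leaving out RC4-2B replicate 1 gave 0.0423 and leaving out replicate 2 gave 0.00535. The share of all tested genes called moved too, from 1.98% with all libraries. It was 0.284%, 0.371% and 0.364% without C4-2B replicates 1, 2 and 3. Without RC4-2B replicates 1, 2 and 3 it was 3.07%, 12.5% and 0.503%. The log2 fold change of BMP6 was -1.24 to -1.05 with single libraries left out. Across all 18 fits it was between -1.24 and -0.63, and 10 fits made the call.

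BMP7, a ligand close to BMP6 in sequence and the most abundant ligand among the members, was measured at 62.2, 61.8 and 54.6 CPM in C4-2B and at 47.6, 49.0 and 45.9 CPM in RC4-2B. The groups did not overlap, and the means were 59.5 ± 4.23 and 47.5 ± 1.55 CPM. Its log2 fold change of -0.33 (SE 0.11, adjusted p = 0.162) did not pass the test, but passed it without RC4-2B replicate 2 (-0.35, adjusted p = 0.0253), whereas with the GC offset it was -0.15 (adjusted p = 0.473). INHBB, which encodes the beta-B subunit of activin B and inhibin B, was at 23.1, 23.0 and 25.0 CPM in C4-2B and at 21.4, 17.9 and 22.0 CPM in RC4-2B. Its log2 fold change was -0.22 (SE 0.14, adjusted p = 0.362). TGFB3 had 16, 9 and 10 counts in C4-2B against 22, 23 and 14 in RC4-2B. That is 0.955, 0.510 and 0.569 CPM against 1.38, 1.31 and 0.822 CPM, with overlapping groups and a log2 fold change of 0.78 (SE 0.39, adjusted p = 0.271). BMP1 is a metalloprotease that processes procollagens and chordin and is no BMP ligand despite its name, and its log2 fold change was 0.02 (SE 0.20).

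BMPR1B (ENSG00000138696, chr4:94757968-95158448, plus strand, GRCh38), the kinase receptor also called ALK6, gave the clearest difference among the members. Its level was 29.8, 28.9 and 28.6 CPM in the C4-2B replicates 1, 2 and 3. In the RC4-2B replicates it was 8.69, 10.1 and 6.11 CPM, so that the highest RC4-2B value was well below the lowest C4-2B value. The means were 29.1 ± 0.622 and 8.32 ± 2.04 CPM (SD, n = 3 each, adjusted p = 0.00453 from edgeR), which is -1.80 on the log2 scale (SE 0.19). Per length the mean went from 4.13 to 1.20 FPKM. The call held when each library was left out in turn, with log2 fold changes of -1.98 to -1.63 and adjusted p-values of 7.49e-07 to 0.0423. Over all 18 fits 17 made the call.

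**Figure D3:**
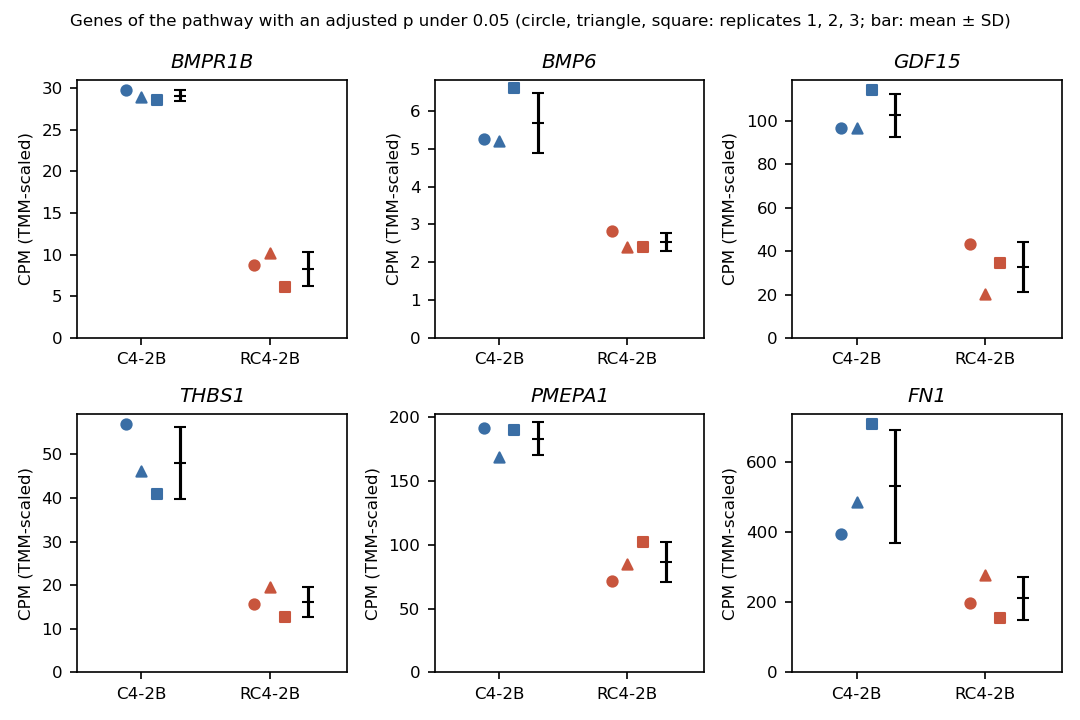
TMM-scaled CPM in each replicate of C4-2B and RC4-2B for the members BMPR1B and BMP6 and for GDF15, THBS1, PMEPA1 and FN1, with the mean and SD of the 3 replicates beside the points and each axis starting at 0. In each of the 6 genes all RC4-2B points lie below all C4-2B points.

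The other type I receptors among the members did not pass the test in either direction. TGFBR1, the type I receptor for TGF-beta, was at 17.6, 24.6 and 24.5 CPM in C4-2B and at 27.3, 33.8 and 29.0 CPM in RC4-2B, without overlap and with a log2 fold change of 0.43 (SE 0.17, adjusted p = 0.20). ACVR1, which can transmit BMP and activin signals, had a log2 fold change of 0.36 (adjusted p = 0.217), again without overlap. ACVR1B, the main activin type I receptor, was at 48.0, 51.2 and 54.0 CPM against 45.5, 38.2 and 41.6 CPM, with a log2 fold change of -0.29 (SE 0.12, adjusted p = 0.212). BMPR1A, the other dedicated BMP type I receptor, was at 31.4, 30.5 and 29.4 CPM in C4-2B and at 28.4, 47.3 and 33.1 CPM in RC4-2B. Its groups overlapped, and its log2 fold change was 0.25 (adjusted p = 0.428).

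The summed FPKM of the 5 type I receptors among the members was split into shares. BMPR1B made up 22.1%, 20.4% and 19.3% in the C4-2B replicates and 7.09%, 7.58% and 5.05% in the RC4-2B replicates. As means that was 20.6% ± 1.44 and 6.57% ± 1.34 (SD, n = 3 each), and by counts not divided by length it was 20.2% and 6.30%. The shares of the others add up to the remainder, so that their sum is bound to rise when the BMPR1B share falls. TGFBR1 went from 14.5% to 21.9%, ACVR1 from 12.9% to 18.7% and BMPR1A from 12.0% to 15.8%, while ACVR1B, the largest, went from 40.1% to 37.0%. These shares are a description without a test. By FPKM they place BMPR1B second among these 5 receptors in C4-2B and last in RC4-2B. By counts not divided by length, BMPR1A (21.1%) was above BMPR1B in C4-2B.

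**Figure D4:**
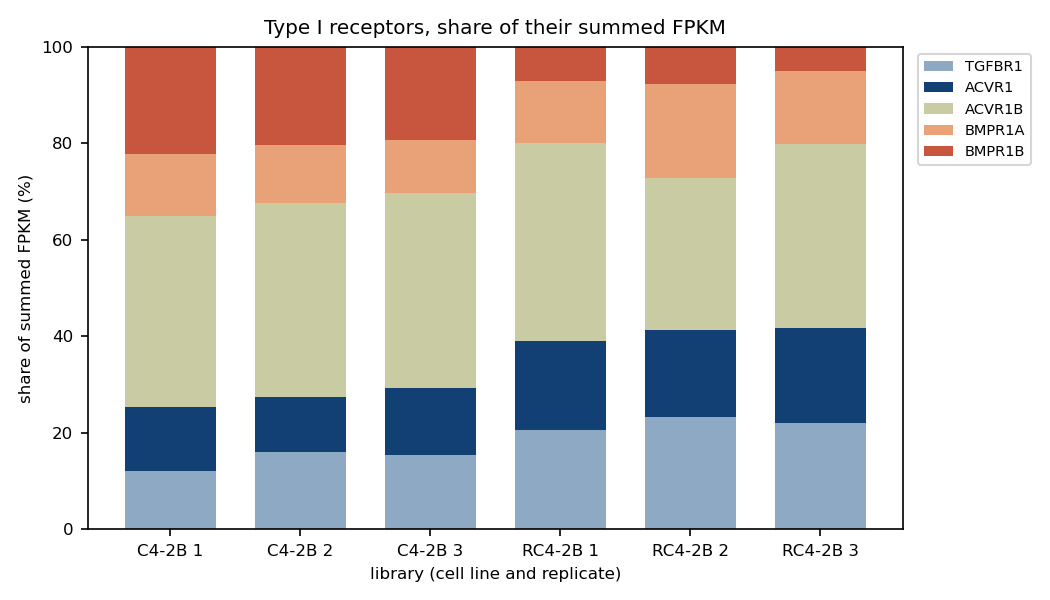
Share of each type I receptor in the summed FPKM of the 5 type I receptors among the members, in percent, as a stacked bar for each library. The BMPR1B segment at the top takes 19.3% to 22.1% of the C4-2B bars and 5.05% to 7.58% of the RC4-2B bars.

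The 4 tested type II and III receptors all had log2 fold changes above 0, from 0.18 to 0.66, and none passed the test. ACVR2B, which binds activins and some BMPs, was at 8.77, 7.76 and 6.49 CPM in C4-2B and at 12.1, 14.7 and 9.63 CPM in RC4-2B. Every RC4-2B library lay above the C4-2B libraries, but with a log2 fold change of 0.66 (SE 0.21) the adjusted p was 0.133. BMPR2, the BMP type II receptor and the most abundant of this class, was at 60.3, 69.9 and 73.0 CPM in C4-2B and at 59.8, 103 and 67.8 CPM in RC4-2B. The single high value was that of RC4-2B replicate 2. The log2 fold change of 0.18 (SE 0.20, adjusted p = 0.591) became -0.09 without that library and -0.03 with the GC offset. ACVR2A and the co-receptor TGFBR3, also called betaglycan, had log2 fold changes of 0.33 and 0.38 with adjusted p-values of 0.328 and 0.253. BMPR2 accounted for 52.7% and 48.8% of the summed FPKM of the 5 type II and III receptors among the members in C4-2B and RC4-2B. The share of TGFBR2 was 0.466% and 0.376%.

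The SMADs that carry the signal did not pass the test with all 6 libraries. SMAD5, the most abundant of them per length, was at 95.2, 109 and 109 CPM in C4-2B and at 125, 138 and 136 CPM in RC4-2B. The groups did not overlap, and the log2 fold change was 0.35 (SE 0.11, adjusted p = 0.139). Without RC4-2B replicate 2 it was 0.32 and passed (adjusted p = 0.0294), whereas with the GC offset it was 0.15 (adjusted p = 0.379). SMAD1 and SMAD9, the other BMP-responsive SMADs, had log2 fold changes of 0.02 and 0.12 with overlapping groups, and both were below 0 with the GC offset (-0.17 and -0.01). SMAD3 had one of 0.34 (adjusted p = 0.319).

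SMAD2, which transmits TGF-beta and activin signals, was at 80.6, 81.4 and 83.1 CPM in C4-2B and at 59.8, 75.4 and 61.6 CPM in RC4-2B. SMAD4, the common partner, was at 50.7, 53.8 and 56.1 CPM in C4-2B and at 38.1, 47.5 and 45.8 CPM in RC4-2B. In neither gene did the groups overlap. The log2 fold changes were -0.32 (SE 0.12, adjusted p = 0.20) for SMAD2 and -0.29 (SE 0.13, adjusted p = 0.233) for SMAD4. Both passed the test without RC4-2B replicate 2, at -0.43 (adjusted p = 0.00454) and -0.35 (adjusted p = 0.0352), and with the GC offset, at -0.49 (adjusted p = 0.00705) and -0.45 (adjusted p = 0.0182).

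SMAD2, SMAD4 and SMAD7 all lie on chromosome 18, where other genes were also lower. The median log2 fold change of the other tested genes of that chromosome was -0.18, and -0.30 with the GC offset, over 230 tested genes including the 3 members. With the GC offset SMAD7 was at -0.32, and the further pathway genes TWSG1, NEDD4L and TGIF1 of this chromosome were at -0.45, -0.39 and -0.04. On chromosome 17, where SMURF2 lies, the corresponding medians were 0.15 and 0.24 over 944 tested genes, beside 0.33 and 0.18 for SMURF2. For chromosome 19, which holds LTBP4 and the further pathway gene GDF15, they were -0.24 and -0.03 over 1070 tested genes. LTBP4 was at -0.34 and 0.12. The part of these chromosome-wide values in the differences of the members was not tested.

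Within the receptor-activated SMADs, SMAD5 made up 52.7% of the summed FPKM in C4-2B and 58.2% in RC4-2B, and SMAD2 10.3% and 7.13%. By counts not divided by length the shares were 44.3% and 52.7% for SMAD5 and 34.7% and 25.9% for SMAD2. The gap between the scales for SMAD2 comes with the gene length of 36366 bases that the table gives it, the longest of all members. In both scales SMAD5 was higher and SMAD2 lower in every RC4-2B library than in any C4-2B library, and no test was made on the shares. The shares add up to a whole, so that the rise of SMAD5 and the fall of SMAD2 are not independent.

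None of the 6 genes that restrain the signal inside the cell passed the test. SMURF2, a ubiquitin ligase that acts on SMADs and their receptors, was at 38.0, 39.7 and 37.4 CPM in C4-2B and at 42.9, 53.4 and 48.3 CPM in RC4-2B, with a log2 fold change of 0.33 (SE 0.12, adjusted p = 0.184). SMAD7, the inhibitor of TGF-beta receptors, was at 13.7, 16.1 and 14.5 CPM against 10.9, 7.92 and 12.9 CPM, again without overlap (log2 fold change -0.48, adjusted p = 0.217). SMAD6, the inhibitor that acts mainly on BMP signals, was at 43.4, 45.8 and 36.7 CPM against 31.1, 18.8 and 38.0 CPM, and the groups overlapped (log2 fold change -0.52, adjusted p = 0.246). SKI, the most abundant gene of this class, was at 168, 181 and 184 CPM in C4-2B and at 167, 161 and 187 CPM in RC4-2B. Its log2 fold change was -0.05 (SE 0.11) and turned to 0.33 with the GC offset, without passing the test. SMURF1 and SKIL, a relative of SKI, had log2 fold changes of 0.13 and 0.26.

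The 4 ID genes encode inhibitors of basic helix-loop-helix factors and are classical targets of BMP signalling. ID1 was at 68.7, 65.7 and 48.5 CPM in C4-2B and at 65.2, 30.6 and 95.2 CPM in RC4-2B. The RC4-2B libraries thus held both the lowest and the highest value, and the log2 fold change was 0.06 (SE 0.35, adjusted p = 0.925). It was -0.35 when replicate 3 of RC4-2B was left out and 0.40 when replicate 2 was, with no call in either case. ID3 was at 66.2, 64.8 and 46.5 CPM against 51.2, 23.5 and 55.9 CPM (log2 fold change -0.44, adjusted p = 0.387), with the lowest value again in RC4-2B replicate 2. ID4, the member of this class with the smallest p, was at 4.89, 6.06 and 5.35 CPM in C4-2B and at 4.50, 3.42 and 4.46 CPM in RC4-2B, without overlap (log2 fold change -0.40, SE 0.20, adjusted p = 0.283). ID2 had a log2 fold change of 0.02. Of the summed FPKM of the ID genes, ID1 made up 53.2% in C4-2B and 58.8% in RC4-2B and ID3 35.4% and 28.6%, shares that did not overlap between the lines. By counts not divided by length the shares of ID3 were again apart, but those of ID1 overlapped, with 42.1% to 43.1% in C4-2B and 43.0% to 52.7% in RC4-2B. These shares also add up to a whole and were not tested.

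Outside the cell, CHRD (chordin) was the single antagonist gene with enough counts for the test. It had 10, 6 and 11 counts in C4-2B against 16, 1 and 27 in RC4-2B, and its log2 fold change was 0.74 (SE 0.78, adjusted p = 0.569). The latent TGF-beta binding proteins hold secreted TGF-beta in the matrix in an inactive form, with LTBP2 as the exception that does not bind it. LTBP3 was at 177, 147 and 160 CPM in C4-2B and at 154, 56.2 and 163 CPM in RC4-2B, and LTBP4 at 67.5, 63.1 and 65.7 CPM against 61.3, 25.9 and 68.5 CPM. For both, RC4-2B replicate 2 alone was low. Their log2 fold changes were -0.38 (SE 0.34) and -0.34 (SE 0.30), and with the GC offset they were 0.10 and 0.12. LTBP2 was at 6.32, 7.08 and 8.20 CPM in C4-2B and at 9.69, 9.63 and 8.11 CPM in RC4-2B (log2 fold change 0.34, SE 0.18, adjusted p = 0.282), and LTBP1 had a log2 fold change of -0.01.

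The values of RC4-2B replicate 2 followed the base composition of the transcripts. On a log2 CPM scale with 0.5 added, this library lay below the mean of replicates 1 and 3 by 1.67 for CHRD, 1.48 for LTBP3, 1.35 for ID1, 1.31 for LTBP4 and 1.17 for ID3, and above it by 0.683 for BMPR2 and 0.619 for BMPR1A. CHRD, which had 1 count in this library, LTBP3 and LTBP4 have 64.6% to 67.7% GC in their longest transcript. ID1 and ID3 have 58.6% and 56.7%, whereas BMPR2 and BMPR1A have 39.1% and 39.4%. Not every member rich in GC was low, as SKI (61.4% GC) lay at -0.133, LTBP2 (57.2%) at 0.114 and BMP7 (56.5%) at 0.0669. Across the 35 tested members, which all come from the same 3 libraries, the Spearman correlation of this deviation with transcript GC was -0.777, and across 14987 tested genes it was -0.671. Genes are not independent replicates, so no p is given.

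**Figure D5:**
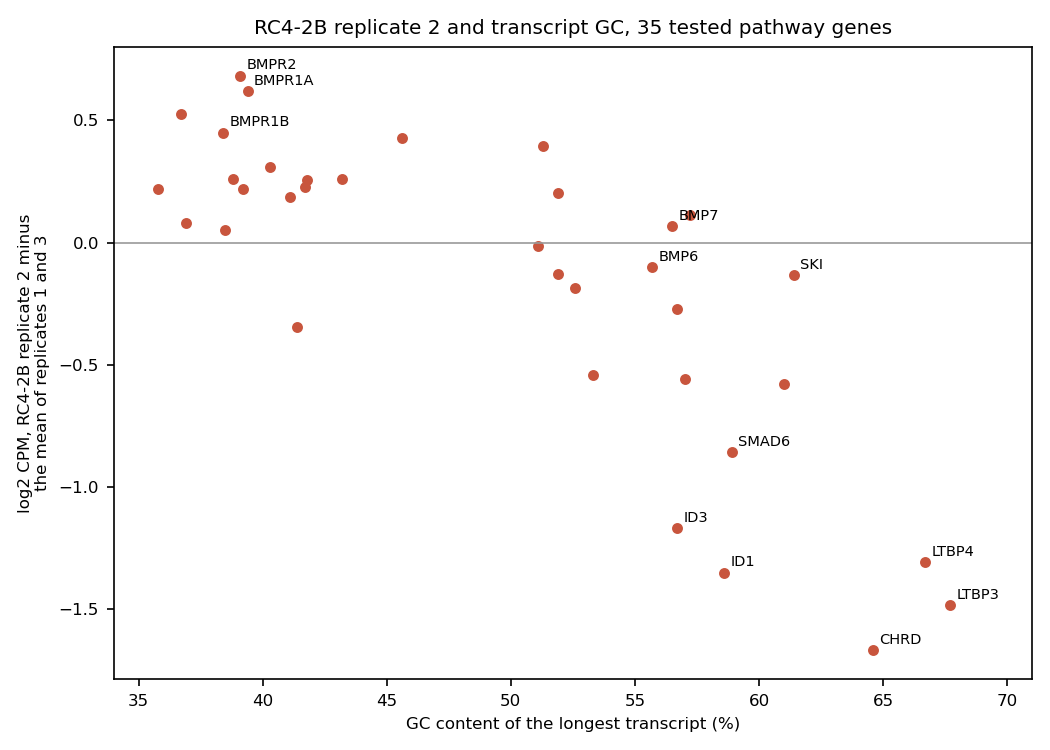
Deviation of RC4-2B replicate 2 from the mean of RC4-2B replicates 1 and 3, in log2 CPM, against the GC content of the longest transcript in percent, with 1 point for each of the 35 tested members. Members rich in GC tend to lie low, such as CHRD at -1.67 and LTBP3 at -1.48, though SKI lies at -0.133. Members poor in GC, such as BMPR2 at 0.683, tend to lie high.

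Beyond the members, 66 further genes of the pathway and 24 of its target genes were examined, of which 35 and 17 were expressed well enough for the test. Like the members, they were chosen with earlier results of these data known. Their shares beside those of all tested genes are thus a description only. Of these 52 genes, 0 passed as higher, beside 1.08% of all tested genes, and 4 as lower, beside 0.903%. At an unadjusted p under 0.05, 5 were higher and 10 lower, beside 12.0% and 9.42% of all tested genes. DESeq2, which gave a fold change for 76 of the 90 genes, called 3 as higher and 5 as lower, beside 1.72% and 1.38% of its genes. Their median log2 fold change was -0.11. The 4 were GDF15, THBS1, PMEPA1 and FN1.

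GDF15 (chr19:18374731-18389176), a distant ligand of the family that is known as a stress-responsive cytokine, was at 96.7, 96.8 and 114 CPM in C4-2B and at 43.2, 20.4 and 34.7 CPM in RC4-2B. Its mean was 3.13-fold lower in RC4-2B, with a log2 fold change of -1.65 (SE 0.25, adjusted p = 0.0178). THBS1 (chr15:39581079-39599466), whose product thrombospondin can activate latent TGF-beta, was at 56.9, 46.2 and 40.9 CPM against 15.8, 19.7 and 12.8 CPM. It was 2.98-fold lower, with a log2 fold change of -1.58 (SE 0.19, adjusted p = 0.00854). Neither gene showed any overlap between the lines.

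PMEPA1 (chr20:57648392-57711536) encodes a membrane protein that binds receptor-activated SMADs and is induced by TGF-beta and by androgen. It was at 191, 169 and 190 CPM in C4-2B and at 71.9, 84.9 and 103 CPM in RC4-2B, 2.12-fold lower (log2 fold change -1.08, SE 0.15, adjusted p = 0.0115). FN1 (chr2:215360440-215436172), the gene of the matrix protein fibronectin and a common TGF-beta target, was at 395, 486 and 707 CPM against 199, 277 and 156 CPM, 2.51-fold lower (log2 fold change -1.33, SE 0.26, adjusted p = 0.0414). The C4-2B values of FN1 were spread widely, but the lowest of them was above the highest RC4-2B value. The FN1 call was made in 9 of 18 fits and in none of the 3 limma fits (adjusted p = 0.102 to 0.202).

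These calls also changed when single libraries were left out, with the log2 fold changes of the 4 genes below 0 in every one of these fits. The share of all tested genes called, 1.98% with all libraries, moved as well. Without C4-2B replicate 1 none of the 4 was called, and adjusted p-values were 0.0609 to 0.103, beside 0.284% of all tested genes called. Without C4-2B replicate 2 or C4-2B replicate 3, THBS1 alone was called, at adjusted p-values of 0.0459 and 0.0301. Of all tested genes, 0.371% and 0.364% were called there. Without RC4-2B replicate 1, GDF15, PMEPA1 and THBS1 were called, with WWP1 as higher, beside 3.07% of all tested genes. Without RC4-2B replicate 3, PMEPA1 and THBS1 were called, beside 0.503%. Without RC4-2B replicate 2, 8 of 52 genes passed as lower, the same 4 with BAMBI, FSTL1, NEDD4L and TWSG1, beside 6.02% of all tested genes. In that fit 4 of 52 (7.69%) passed as higher, namely COL1A1, CRIM1, FBN1 and WWP1, which is near the 6.50% of all tested genes. In the fit with all libraries CRIM1, a membrane protein that binds BMPs, had a log2 fold change of 0.81 (adjusted p = 0.0510), FBN1, the matrix protein fibrillin that anchors latent TGF-beta complexes, one of 1.51 (adjusted p = 0.0550) and BAMBI, a decoy receptor without kinase activity, one of -0.58 (adjusted p = 0.0808). CRIM1, FBN1, BAMBI and the genes called without single libraries were chosen for mention after their values had been seen.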

How the data were processed

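RNA of C4-2B and RC4-2B cells, 3 replicates each, was sequenced. The labels call them biological replicates. The labels name fetal bovine serum for the culture, and the methods of the study also name charcoal-stripped serum. STAR was used by the authors for mapping to GRCh38. The deposited counts give unnormalized reads for each gene as whole numbers. The deposited FPKM values follow from these counts through the gene length and 1 total for each library (17878200 to 19817300). These totals differ from the summed counts of the libraries (15707134 to 18052517). The annotation release, the counting program and how it treats strand are not given in the sources used here, so that genes that overlap others or share sequence with them carry that uncertainty.

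Counts were analysed with edgeR 4.0.16 in R 4.3.3. TMM scaling was used, and filterByExpr, at its minimum of 10 counts, left 15054 genes. The 2 lines were compared with glmQLFit and glmQLFTest, p-values were adjusted by Benjamini-Hochberg over these genes, and 0.05 was the threshold. The SE of a log2 fold change was taken as its absolute value over the root of F. CPM values are TMM-scaled. The script was tested on simulated data. No library was a copy of another of the same line, as pairs within a line differed by 3.53 to 70.4 in chi-square for each gene.

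The alternatives were DESeq2 1.42.0, which the study names, RLE and upper-quartile scaling, no filter beyond 1 count, a filter at a mean of 10 counts, a block for the replicate number, leaving out each library, limma 3.58.1 on log2(FPKM + 1) or log2(FPKM + 0.1) for genes that reached an FPKM of 1 in 3 libraries or more, or without that filter, a scale that understates changes of low genes, and a GC offset with and without RC4-2B replicate 2. For the GC offset, each library's deviation from the mean log2 CPM of a gene was smoothed (lowess, span 0.2) over transcript GC, taken from the longest transcript in GENCODE release 44 and known for 99.6% of tested genes. It also removes any mean GC trend between the lines.

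The members and all gene lists were chosen with earlier results of these data known. Named are the members past the threshold, in each of 10 role classes the tested member with the smallest p and the one with the highest FPKM, the members called without RC4-2B replicate 2, and the further pathway and target genes past the threshold. Other members are given by value where their class is described.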

Additional observations from a re-analysis of the deposited data

How the results depend on the processing

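The number of members called lower, 2 with all libraries, was 4 with the GC offset, 5 with the GC offset without RC4-2B replicate 2, 1 with limma on log2(FPKM + 1) or log2(FPKM + 0.1), 0 with limma without a filter and 1 to 5 with single libraries left out. The number called higher, 0, was 2 with the GC offset without RC4-2B replicate 2 (ID1 and CHRD) and 0 to 1 with single libraries left out. Of the further pathway and target genes, 0 were called higher, but 3 by DESeq2, 4 with the GC offset, 4 with it and without RC4-2B replicate 2, 4 without a filter, 1 with upper-quartile scaling and 0 to 4 with single libraries left out. The 4 called lower became 8 with the GC offset, 8 with it and without RC4-2B replicate 2, 0 with limma without a filter and 0 to 8 with single libraries left out. The shares of all tested genes moved too, from 1.08% higher and 0.903% lower with all libraries. They were 0.0447% and 0.079% with limma without a filter. With limma on log2(FPKM + 1) they were 0.384% and 0.484%, and on log2(FPKM + 0.1) 0.325% and 0.392%. Without a filter in edgeR they were 2.07% and 2.22%, with DESeq2 1.72% and 1.38%, and with upper-quartile scaling 1.18% and 0.923%. The GC offset gave 4.39% and 3.27%. With single libraries left out, 0.284% to 12.5% were called in both directions together, beside 1.98% with all libraries. With the GC offset and without RC4-2B replicate 2 the shares were 6.81% higher and 6.65% lower. In that fit 5.71% of the tested members and 7.69% of the further genes were called higher, near the share of all tested genes. As lower, 14.3% and 15.4% were called. These shares are a description only. With 2 libraries in a line, the spread is estimated from fewer samples. The cause of the other changes was not tested.

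Replicate numbers are shared between the lines in the labels. The correlation of the deviations of same-numbered libraries was 0.141, 0.084 and -0.011, so that the numbers were not taken to pair the libraries. With the replicate block, 129 genes were called (55 higher, 74 lower) in place of 298, 1 member (BMPR1B) was called lower, and FN1 (adjusted p = 0.0672) and BMP6 (adjusted p = 0.0744) were not called.

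Changes of sign were met in members that were not called with all libraries. With the GC offset they were BMPR2, LTBP1, LTBP3, LTBP4, SKI, SMAD1 and SMAD9. The log2 fold change of BMPR2 was -0.03 with the GC offset, -0.16 with the GC offset and replicate 2 of RC4-2B left out, and -0.09 when only that library was left out. SKI was at 0.33 and 0.11 and LTBP3 at 0.10 and 0.17 in the 2 GC-offset fits. ID1 was at -0.04 in the 3 limma fits, -0.06 with the replicate block and -0.35 to 0.40 with single libraries left out, and CHRD at -0.01 to 1.31. By counts not divided by length, the shares in C4-2B and RC4-2B were 21.1% and 27.4% for BMPR1A, 60.9% and 56.6% for BMPR2, 44.3% and 52.7% for SMAD5 and 42.4% and 47.7% for ID1. BMPR1B missed the threshold with limma without a filter alone (adjusted p = 0.0572). The median log2 fold change of the members was -0.03 to 0.10 with single libraries left out and 0.09 with the GC offset.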
